A study of Homo sapiens with 18 samples.

Results

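The genes that write, keep and remove DNA methylation were followed in human embryonic stem cells in which the zinc finger factor ZNF263 had been edited. The 9 genes were chosen by symbol from the 27130 symbols of the deposited count tables: the de novo methyltransferases DNMT3A and DNMT3B and their catalytically inactive partner DNMT3L, the maintenance methyltransferase DNMT1 and its partner UHRF1, the dioxygenases TET1, TET2 and TET3, and the glycosylase TDG. All 9 were found in each of the 3 tables. DNMT3A and DNMT3B add methyl groups to unmethylated CpG sites, whereas DNMT1, brought to hemimethylated sites by UHRF1, copies the pattern after replication. TET enzymes oxidise methylated cytosine, and TDG excises the most oxidised forms so that base excision repair can restore cytosine. Primed human embryonic stem cells are known for high DNMT3B and TET1.

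Polyadenylated RNA was sequenced from the established embryonic stem cell lines H1 (WA01) and H9 (WA09) and from Cas9-edited clones, to ask what this factor does in the control of pluripotency. The replicated groups were the homozygous knockout clone 1-10 of H1, unedited H1 wild type, the homozygous knockout clones 9-1 and 9-D of H9, and unedited H9 wild type, with 3 libraries each. A separate H1 set had no replicates and held the heterozygous knockout clone 1-5, clone 1-10 and wild type, 1 library each. Each genotype of a line other than wild type was a single clone, or in H9 a pair of clones, so a difference belongs to the clone as well as to the edit. The labels do not say whether replicates were separate cultures, so p-values measure the spread between these libraries, which may be technical.

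Between 9.66 and 21 M reads were counted per library. Levels are given as CPM, counts scaled to a common library size with TMM factors. The targeted gene itself was lower in each replicated clone. ZNF263 averaged 34.2 ± 1.86 CPM in clone 1-10, against 40.8 ± 1.26 CPM in H1 wild type, and 35.8 ± 1.41 CPM in clone 9-1 with 36.0 ± 1.29 CPM in clone 9-D, against 42.0 ± 2.23 CPM in H9 wild type (SD, n = 3 each). Adjusted p for these differences was 0.0156, 0.0157 and 0.0204 (edgeR quasi-likelihood test with Benjamini-Hochberg adjustment). The labels do not state which part of the gene was edited, so the ZNF263 reads that remained in the clones do not test for the protein. All 12 pluripotency markers were above 1 CPM in every group. Fibroblast markers summed to 952.3 to 1127 CPM in clone 1-10, against 949 to 1018 CPM in H1 wild type, and to 1234 to 1334 CPM in clone 9-1 and 1362 to 1489 CPM in clone 9-D, against 1387 to 1454 CPM in H9 wild type, with DCN or LUM at 0 in each H9 group. Of 8 fibroblast markers tested in H1, 1 rose and 3 fell in clone 1-10. Of 7 tested in H9, 1 rose and 5 fell in clone 9-1, and 1 rose and 3 fell in clone 9-D. Neural markers summed to 753.9 to 834.6 CPM in clone 1-10, against 751.6 to 794.7 CPM in H1 wild type, and to 768.4 to 850.4 CPM in clone 9-1 and 752.9 to 821.3 CPM in clone 9-D, against 649.1 to 704.9 CPM in H9 wild type. Of 7 neural markers tested in H1, 3 fell in clone 1-10. Of 6 tested in H9, 1 rose and 1 fell in each clone. Trophoblast markers were scarce, at 5.36 to 5.98 CPM in clone 1-10, against 9.69 to 10.6 CPM in H1 wild type. They summed to 7.08 to 8.05 CPM in clone 9-1 and 6.78 to 9.46 CPM in clone 9-D, against 9.56 to 9.96 CPM in H9 wild type. KRT7 fell in each clone, as the only 1 tested in H1 and as 1 of 3 tested in H9. Beside these marker counts, 12.3% of all genes tested were called in clone 1-10, 26.3% in clone 9-1 and 23.5% in clone 9-D.

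Of the members, DNMT3B rose in all 3 replicated clones and DNMT3L rose in both H9 clones. UHRF1 fell in both H9 clones, and TET1 fell in clone 1-10 and rose in clone 9-1. DNMT1, DNMT3A, TET2, TET3 and TDG passed the test in none of the 3 comparisons of a clone with its wild type. In clone 1-10, 2 of the 8 members tested were called at an adjusted p of 0.05, while 12.3% of 14897 genes were called (5.01% higher and 7.25% lower). DNMT3L did not pass the filter on low counts in H1. In clone 9-1, 4 of 9 members were called, beside 26.3% of 15411 genes (12.8% higher and 13.5% lower). In clone 9-D, 3 of 9 members were called, beside 23.5% of genes (11.5% higher and 12% lower). The median log2 fold change of the members was 0.02 in clone 1-10, 0.02 in clone 9-1 and -0.02 in clone 9-D, against medians of all genes tested of 0.00263, -0.00367 and -0.00776. The clones 9-1 and 9-D were each set against the same 3 wild-type libraries, so their values are given side by side and their agreement is not independent evidence. Where libraries are said not to overlap, this is a description, and the share of all genes without overlap was not counted.

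**Figure D1:**
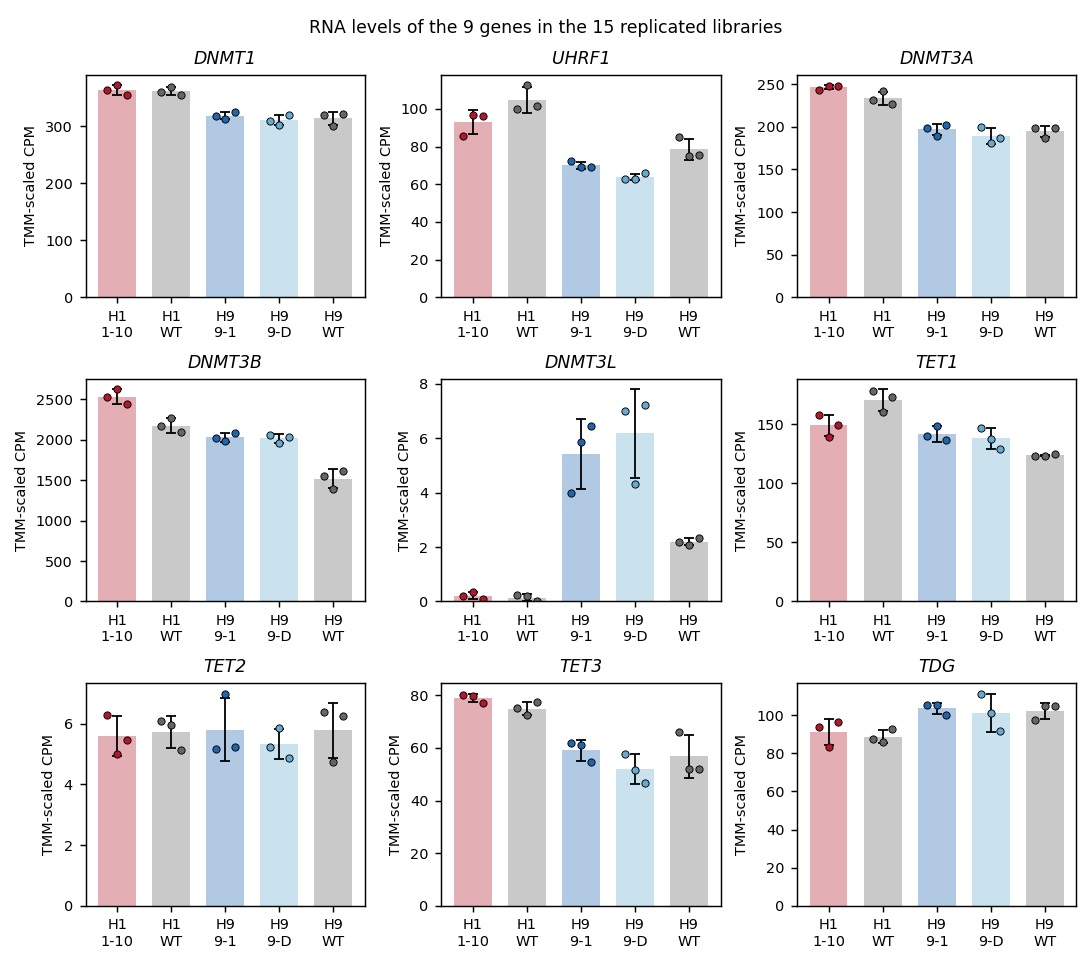
Level of each of the 9 genes (y axis, TMM-scaled CPM, linear from 0, a scale per panel) in the 5 replicated groups. Points are libraries, bars are group means and error bars are SDs (n = 3). DNMT3B was higher in every knockout library than in any wild-type library of its line, and DNMT3L stood near 0 in all H1 libraries.

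DNMT3B, a de novo enzyme known to be abundant in primed pluripotent cells, was called in all 3 clones. It stood at 2530.1, 2619 and 2436 CPM in clone 1-10, against 2162, 2266 and 2093 CPM in H1 wild type. Every clone library was above every wild-type library. Its log2 difference of 0.21 passed the test (SE 0.04, adjusted p = 0.000438 by edgeR with Benjamini-Hochberg adjustment), and was a rise of 15.8%. In H9, DNMT3B stood at 2022, 1979.6 and 2085 CPM in clone 9-1 and at 2062, 1958 and 2027 CPM in clone 9-D, against 1551, 1384 and 1611 CPM in H9 wild type. The clone libraries again lay wholly above the wild-type ones. The log2 fold changes were 0.42 (SE 0.06, adjusted p = 2.56e-07, edgeR) in clone 9-1 and 0.41 (SE 0.06, adjusted p = 4.36e-07, edgeR) in clone 9-D, rises of 33.5% and 32.7%. Leaving out any library or changing any setting tried ended none of these 3 calls. In bulk RNA, a change in the number of cells of a type and a change in RNA per cell cannot be told apart. The summed level of the 12 pluripotency markers was also higher in each clone than in its wild type. Those sums were 9219 to 9376 CPM in clone 1-10, against 8590 to 8769 CPM in H1 wild type, and 8941 to 9040 CPM in clone 9-1 and 9029 to 9220 CPM in clone 9-D, against 8103 to 8386 CPM in H9 wild type. Of these 12 markers, 2 rose in clone 1-10, 8 rose and 1 fell in clone 9-1, and 7 rose in clone 9-D. Over all genes tested, 12.3% were called in clone 1-10, 26.3% in clone 9-1 and 23.5% in clone 9-D. The marker count in clone 1-10 was near that share. DPPA4 rose in all 3 clones, with log2 fold changes of 0.19 in clone 1-10, 0.37 in clone 9-1 and 0.30 in clone 9-D. ZFP42 rose by 0.88 in clone 9-1 and 0.89 in clone 9-D, NANOG by 0.43 in each, and TDGF1 by 0.25 in clone 9-1 and 0.40 in clone 9-D. POU5F1 rose in clone 9-D, by 0.17, and its differences of 0.11 in clone 1-10 and 0.10 in clone 9-1 did not pass. SOX2 was called in no clone. Some markers went the other way. PODXL was the 1 that fell in clone 9-1, by 0.22 on the log2 scale, and its -0.10 in clone 9-D did not pass. TERT was lower in both H9 clones, at -0.20 (9-1) and -0.18 (9-D), without passing. ZFP42, a riser in H9, was at -0.11 in clone 1-10 and was not called there. The part of these markers in the DNMT3B result was not tested.

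The knockout effect on DNMT3B was larger in the H9 clones than in clone 1-10, by a call near the threshold. As clone 1-10 was the only replicated H1 knockout clone, line and clone cannot be told apart. The mean effect of the H9 clones exceeded that of clone 1-10 by 0.20 on the log2 scale (SE 0.07, adjusted p = 0.0465, edgeR), in a comparison that called 9.21% of 15802 genes (5.21% higher and 4% lower). This call held in 6 of 15 fits that each left out 1 library. It ended without clone 1-10 replicates 1 and 3, H1 wild-type replicates 1 and 2, clone 9-1 replicates 1 and 3, clone 9-D replicates 1 and 3, and H9 wild-type replicate 2, each left out in turn, with adjusted p from 0.0521 to 0.184 (edgeR).

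DNMT3L, which in mouse cells stimulates DNMT3A and DNMT3B and is a marker of naive rather than primed pluripotency, was scarce throughout. It reached 3.99, 5.86 and 6.44 CPM in clone 9-1 and 7.0, 4.31 and 7.23 CPM in clone 9-D, against 2.19, 2.06 and 2.33 CPM in H9 wild type. No clone library overlapped a wild-type one. The rises were 1.31 (SE 0.22, adjusted p = 1.15e-05, edgeR) in clone 9-1 and 1.5 (SE 0.21, adjusted p = 8.98e-07, edgeR) in clone 9-D on the log2 scale. They rest on 268 counts over the libraries of clone 9-1 and 305 over those of clone 9-D, against 102 counts in H9 wild type. In H1 there were 10 counts over the 3 libraries of clone 1-10, against 6 counts in H1 wild type, 1.6 times as many relative to library totals (counting interval 0.526 to 5.35). Other naive pluripotency markers were also called in H9, in both directions. The summed level of 8 such markers without DNMT3L was 57.7 to 70.5 CPM in clone 9-1 and 56.9 to 72.2 CPM in clone 9-D, against 47.3 to 51.6 CPM in H9 wild type, with KLF17 at 0 in all wild-type libraries. In H1 it was 15.1 to 15.8 CPM in clone 1-10, against 14.8 to 16.6 CPM in wild type, where KLF17 was also at 0. KLF4, a transcription factor, made up most of the H9 sum: clone 9-1 had 36.7 ± 5.45 CPM of it and clone 9-D had 40.0 ± 7.34 CPM, against 25.0 ± 1.89 CPM in wild type. SUSD2, a surface marker and the next most abundant, fell in both, clone 9-1 having 12.2 ± 1.73 CPM and clone 9-D 11.7 ± 0.660 CPM, against 16.3 ± 1.44 CPM in wild type (SD, n = 3 each). Of the naive markers with DNMT3L, 4 of 6 tested rose and 1, SUSD2, fell in each H9 clone. DNMT3L itself is 1 of those 4, so the count is in part the result described. None of 5 was called in clone 1-10, where DNMT3L was not tested. Over all genes, 26.3% were called in clone 9-1, 23.5% in clone 9-D and 12.3% in clone 1-10. The part of these markers in the DNMT3L result was not tested.

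DNMT3A, the other catalytic de novo enzyme, showed no call. It stood at 244, 247 and 248 CPM in clone 1-10, against 231, 241 and 227 CPM in H1 wild type. The clone libraries were all above the wild-type ones, but the log2 difference of 0.07 did not pass the test, and its 95% interval ran from -0.03 to 0.17. In H9, the difference was 0.01 (95% interval -0.11 to 0.13) in clone 9-1 and -0.05 (95% interval -0.16 to 0.07) in clone 9-D, and the libraries overlapped.

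UHRF1, the reader of hemimethylated CpG sites, was lower in all 3 clones and passed the test in H9. It stood at 72.3, 69.0 and 69.2 CPM in clone 9-1 and at 63.0, 62.8 and 66.0 CPM in clone 9-D, against 85.2, 75.1 and 75.8 CPM in H9 wild type. All clone libraries were below all wild-type libraries, and wild-type replicate 1 stood above the other wild-type libraries. It fell by 0.30 on the log2 scale in clone 9-D (SE 0.06, adjusted p = 0.000482, edgeR) and by 0.17 in clone 9-1 (SE 0.06, adjusted p = 0.0444, edgeR). The clone 9-1 call ended without H9 wild-type replicate 1 (adjusted p = 0.258), without clone 9-1 replicate 1 (0.0643), replicate 2 (0.119) or replicate 3 (0.14), and without clone 9-D replicate 2 (0.0595), all by edgeR, and DESeq2 gave an adjusted p of 0.0629. In H1, UHRF1 stood at 85.7, 97.0 and 96.1 CPM in clone 1-10, against 100.2, 113 and 102 CPM in wild type. The groups did not overlap, but the log2 difference of -0.18 (95% interval -0.31 to -0.05) had an adjusted p of 0.0538 by edgeR. Without clone 1-10 replicate 2 that p was 0.0169, so that the H1 value lay near the threshold. The 20 S phase genes summed to 3991 to 4111 CPM in clone 1-10, against 3752 to 3935 CPM in H1 wild type, and to 3242 to 3442 CPM in clone 9-1 and 3271 to 3338 CPM in clone 9-D, against 3113 to 3224 CPM in H9 wild type. Of these 20 genes, 3 rose in clone 1-10 (12.3% of all genes tested were called there), 4 rose and 1 fell in clone 9-1 (beside 26.3% of all genes), and 4 rose and 2 fell in clone 9-D (beside 23.5%), so the calls were near the share over all genes. Their median log2 fold changes were 0.05, 0.06 and 0.03. RRM2, a ribonucleotide reductase subunit, rose in all 3, by 0.22 in clone 1-10, 0.26 in clone 9-1 and 0.22 in clone 9-D, while RFC4, a clamp loader subunit, fell by 0.30 in clone 9-1 and by 0.29 in clone 9-D. Their part in the UHRF1 result was not tested.

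DNMT1, the maintenance enzyme itself, was called in no clone. It stood at 363, 372 and 355 CPM in clone 1-10, against 361, 369 and 355 CPM in H1 wild type. The groups overlapped almost wholly. The log2 difference was 0.00199, with a 95% interval from -0.09 to 0.10. In H9 it was 0.01 (95% interval -0.10 to 0.12) in clone 9-1 and -0.02 (95% interval -0.13 to 0.09) in clone 9-D.

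TET1 was the member whose direction differed between clone 1-10 and the H9 clones. It stood at 158, 139 and 149 CPM in clone 1-10, against 178, 159.8 and 173 CPM in H1 wild type. The clone libraries were all lower. It fell by 0.20 on the log2 scale (SE 0.06, adjusted p = 0.0197, edgeR), and the call ended without H1 wild-type replicate 1 (adjusted p = 0.118), without H1 wild-type replicate 3 (0.102) and without clone 1-10 replicate 2 (0.0661), all by edgeR. In H9, TET1 stood at 139.6, 149 and 136 CPM in clone 9-1 and at 147, 138 and 129 CPM in clone 9-D, against 123, 123 and 124 CPM in H9 wild type. Every H9 clone library was above every wild-type library. TET1 rose by 0.19 in clone 9-1 (SE 0.06, adjusted p = 0.0137, edgeR), a call that ended without clone 9-1 replicate 2 (adjusted p = 0.105, edgeR). The difference of 0.15 in clone 9-D (SE 0.06, adjusted p = 0.0564, edgeR) did not pass with all libraries, and did without clone 9-D replicate 3 (adjusted p = 0.0133, edgeR). The difference of effects was itself tested. Clone 1-10 was the only replicated H1 knockout clone, so line and clone cannot be told apart in it. The effect of the H9 clones minus that of clone 1-10 was 0.37 on the log2 scale (SE 0.08, adjusted p = 0.00099, edgeR), and this call held in every fit that left out 1 library. Markers of primitive streak and endoderm also fell in clone 1-10: 4 of 6 tested were lower, and their sums were 9.20 to 17.2 CPM in clone 1-10, against 24.6 to 28.5 CPM in H1 wild type, with none at 0 in every library of either group. In H9 2 of 6 rose in each clone, with sums of 8.57 to 28.7 CPM in clone 9-1 and 11.1 to 20.7 CPM in clone 9-D, against 11.6 to 14.5 CPM in wild type. Over all genes, 12.3% were called in clone 1-10, 26.3% in clone 9-1 and 23.5% in clone 9-D. The part of these markers in the TET1 result was not tested.

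TET3 and TET2, the other dioxygenases, were called in no clone. TET3 stood at 80.3, 79.7 and 77.1 CPM in clone 1-10, against 75.04, 72.4 and 77.4 CPM in H1 wild type. In H9 it stood at 61.8, 61.0 and 54.6 CPM in clone 9-1 and at 57.9, 51.6 and 46.5 CPM in clone 9-D, against 66.2, 52.0 and 52.1 CPM in wild type. The groups overlapped in each comparison, and the 95% intervals ran from -0.05 to 0.20 in clone 1-10, from -0.11 to 0.22 in clone 9-1 and from -0.30 to 0.04 in clone 9-D on the log2 scale. TET2 was scarce, at 5.01 to 6.30 CPM in clone 1-10, against 5.13 to 6.09 CPM in H1 wild type, and at 5.17 to 7.0 CPM in clone 9-1 and 4.88 to 5.87 CPM in clone 9-D, against 4.74 to 6.38 CPM in H9 wild type. Its intervals were the widest of the TET genes, from -0.37 to 0.29 in clone 1-10, -0.31 to 0.34 in clone 9-1 and -0.46 to 0.20 in clone 9-D. TET2 overlaps an annotated antisense gene, TET2-AS1, and whether counting used strand is not given in the sources used here.

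TDG, the glycosylase of active demethylation, stood at 93.9, 83.5 and 96.4 CPM in clone 1-10, against 87.8, 86.0 and 92.6 CPM in H1 wild type. In H9 it ranged from 100.2 to 106 CPM in clone 9-1 and from 91.6 to 111 CPM in clone 9-D, against 97.7 to 105 CPM in wild type. The groups overlapped, and the 95% intervals of the log2 difference ran from -0.10 to 0.16 in clone 1-10, -0.12 to 0.15 in clone 9-1 and -0.15 to 0.11 in clone 9-D. TDG and TET1 have processed pseudogenes in GENCODE v29, TDGP1 and TET1P1, with which reads could have been shared in counting.

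**Figure D2:**
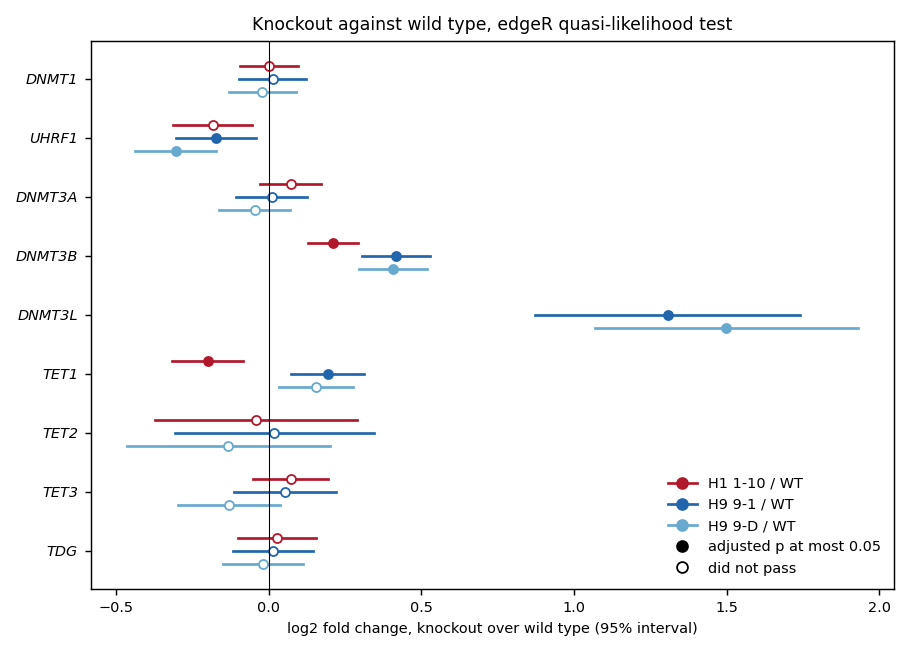
Log2 fold change, clone over its wild type (x axis), for each gene (y axis) in clone 1-10 of H1 and clones 9-1 and 9-D of H9, with 95% intervals. Filled points passed an adjusted p of 0.05. DNMT3B lies right of 0 in all 3 comparisons, UHRF1 left of 0, and TET1 on opposite sides in H1 and H9. DNMT3L was not tested in H1.

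Clone 9-D against clone 9-1 called 0 of 9 members by edgeR, and 0 by DESeq2, while 0.305% of genes were called (0.162% higher and 0.143% lower). Without adjustment, the edgeR p of UHRF1 was 0.0489 and that of TET3 was 0.0313, both lower in clone 9-D. The share of all genes below 0.05 without adjustment is not given, so these values are a description. The TET3 libraries of the clones overlapped, and its adjusted p was 0.674 by edgeR. The UHRF1 libraries of the clones did not overlap, at 62.8 to 66.0 CPM in clone 9-D, against 69.0 to 72.3 CPM in clone 9-1, with a 95% interval of the log2 difference from -0.27 to -0.000658 and an adjusted p of 0.751 by edgeR. For DNMT3B the 95% interval of the log2 difference was -0.12 to 0.10, and for DNMT3L it was -0.18 to 0.56.

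Ratios within a library do not depend on library scaling, and 4 of them were compared in the 3 clones, 12 comparisons in all. With 3 against 3 libraries, the smallest p of the exact two-sided permutation test was 0.1, so no ratio could pass, and the lowest adjusted p was 0.15. Each ratio holds DNMT3B, UHRF1 or TET1, so it restates the values of those genes and is not further evidence of their change. The ratio of DNMT3A to DNMT3B was lower in all 3 clones, with log2 differences of -0.14 in clone 1-10, -0.41 in clone 9-1 and -0.46 in clone 9-D. UHRF1 to DNMT1 was also lower in each, with differences of -0.18 in clone 1-10, -0.18 in clone 9-1 and -0.28 in clone 9-D. TET1 to TET3 was -0.27 in clone 1-10 and 0.28 in clone 9-D, both without overlap, and 0.13 in clone 9-1, with overlap. The TET2 to TET1 ratio overlapped in every comparison.

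**Figure D3:**
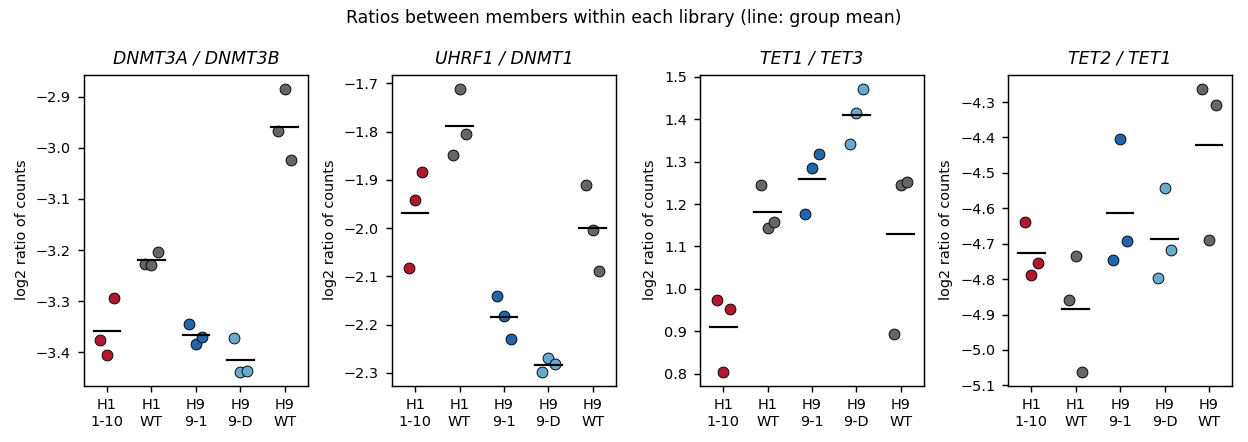
Log2 ratios of counts between pairs of members in each library (y axis, a scale per panel) for the 5 replicated groups. Points are libraries and lines are means of 3. The DNMT3A to DNMT3B and UHRF1 to DNMT1 ratios are lower in every knockout library than in any wild-type library of its line.

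The unedited lines were compared with each other. In H9 wild type against H1 wild type, 8 of 9 members were called, beside 52.7% of genes (27.1% higher and 25.6% lower). DNMT3L was 102 counts in H9 wild type against 6 in H1 wild type, 15.6 times as many relative to library totals (counting interval 6.92 to 43.5). TDG was also higher in H9, by 0.21 on the log2 scale. Lower in H9 wild type were DNMT3B, with a log2 fold change of -0.52, TET1 (-0.46), UHRF1 (-0.41), TET3 (-0.40), DNMT3A (-0.26) and DNMT1 (-0.20), all past the threshold by edgeR. TET2 was not called (95% interval -0.31 to 0.35). The labels do not say whether the lines were prepared or sequenced together, so line and any such batch cannot be told apart. The rise of DNMT3B in the H9 clones brought it to 2029 ± 53.1 CPM in clone 9-1 (2016 ± 52.9 CPM in clone 9-D), below the 2173 ± 87.2 CPM of H1 wild type.

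Levels were also compared between genes as CPM per kilobase of exon, with exon lengths from GENCODE v29. DNMT3B led in every group, at 546 ± 19.9 in clone 1-10, 469 ± 18.8 in H1 wild type, 438 ± 11.5 in clone 9-1, 435 ± 11.4 in clone 9-D and 327 ± 25.4 in H9 wild type (CPM per kb, SD, n = 3). DNMT1 came next, at 57.0 to 66.6 CPM per kb over the groups, then TDG at 26.7 to 31.2, DNMT3A at 17.6 to 22.9, UHRF1 at 12.4 to 20.4, TET1 at 13.3 to 18.3 and TET3 at 4.53 to 6.89. UHRF1 stood above TET1 in clone 1-10 and in both wild types, and below it in clones 9-1 and 9-D. In both H1 groups the means of these genes lay closer than the sum of their SDs, as did those of DNMT3A and UHRF1 in H1 wild type and of TET3 and DNMT3L in clone 9-D. TET2 was last in H9, at 0.34 to 0.37 CPM per kb, while DNMT3L was last in H1. Of the summed TET levels per kb, TET1 made up 68.8 ± 1.27% in clone 1-10, against 72.6 ± 0.727% in H1 wild type, and 73.4 ± 0.889% in clone 9-1 and 75.3 ± 0.750% in clone 9-D, against 71.5 ± 2.88% in H9 wild type.

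In the single H1 libraries, no replicate check exists and no member passed 1.5-fold. Among genes with at least 10 counts, 12.1% passed it in clone 1-5 (5.83% higher and 6.26% lower) and 12.4% in clone 1-10 (4.66% higher and 7.71% lower). DNMT3B stood at 2092 CPM in the heterozygous clone 1-5 and 2168 CPM in clone 1-10, against 1904 CPM in wild type. The ratios were 1.10 (counting interval 1.08 to 1.12) in clone 1-5 and 1.14 (1.12 to 1.16) in clone 1-10, and 1.16 in the replicated clone 1-10 set. TET1 stood at 99.2 CPM in clone 1-5 and 114 CPM in clone 1-10, against 111 CPM in wild type, ratios of 0.893 (0.826 to 0.966) and 1.02 (0.949 to 1.10), so the single clone 1-10 library did not show the lower TET1 of the replicated set. UHRF1 was 0.916 (0.843 to 0.996) of wild type in clone 1-5 and 0.959 (0.884 to 1.04) in clone 1-10. ZNF263 was 0.806 (0.703 to 0.923) of wild type in the heterozygous clone 1-5 and 0.846 (0.740 to 0.967) in the homozygous clone 1-10, so its RNA was not lower in the homozygous library. DNMT3L had 6 counts in clone 1-5 and 1 in clone 1-10, against 0 in wild type. The single wild-type library, at 111 CPM of TET1, lay below the 159.8 to 178 CPM of the replicated H1 wild-type libraries, although the sets were scaled separately. These intervals cover counting error only.

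**Figure D4:**
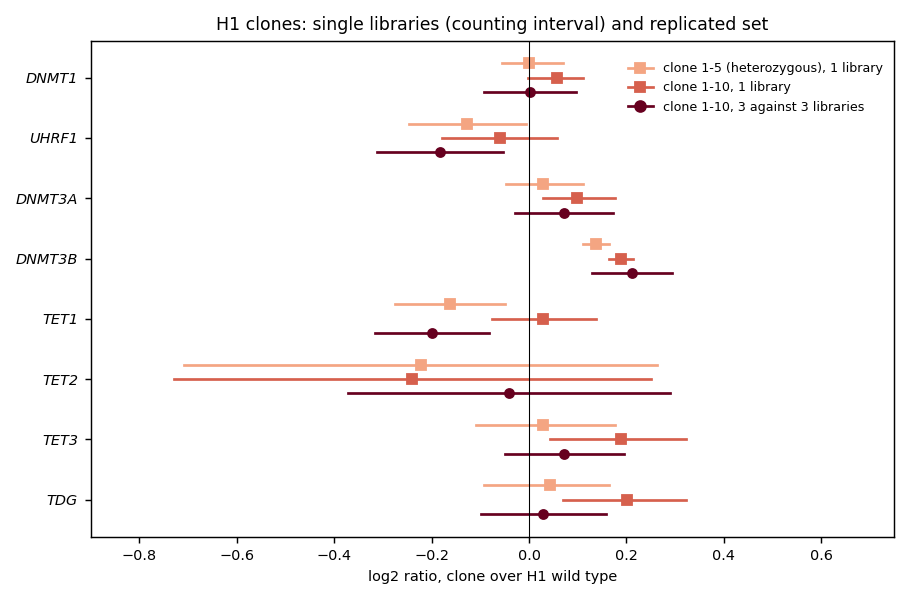
Log2 ratio of clone over H1 wild type (x axis) for 8 members (y axis) in the single libraries of clone 1-5 and clone 1-10 (squares, counting intervals) and in the replicated clone 1-10 set (circles, 95% intervals of the fit). DNMT3B lies right of 0 in all 3, while TET1 of clone 1-10 is near 0 in the single library and at -0.20 in the replicated set.

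Promoter sequence was looked up for the members that passed the test and have an entry, in RefSeq windows of GRCh38.p14 from 250 bases before to 50 after an annotated start. Of the 9 members, 8 matched and DNMT3L did not. The hexamer GGAGGA, part of the GGAGGA-repeat motif reported for ZNF263, is in capitals on either strand (TCCTCC on the other). It stood in 36.6% of 35114 such windows, and 3.81% held at least 3 copies. The DNMT3B window, chr20:32779602-32779901 on the plus strand, held 3, the TET1 window at the gene start, chr10:68560087-68560386 on the plus strand, held 0, and the UHRF1 window nearest its gene start, chr19:4909251-4909550 on the plus strand, held 0. The DNMT3B window is at an internal start 17467 bases into the gene and the UHRF1 one 6421 bases into it, and gene counts do not show which start is used.
DNMT3B: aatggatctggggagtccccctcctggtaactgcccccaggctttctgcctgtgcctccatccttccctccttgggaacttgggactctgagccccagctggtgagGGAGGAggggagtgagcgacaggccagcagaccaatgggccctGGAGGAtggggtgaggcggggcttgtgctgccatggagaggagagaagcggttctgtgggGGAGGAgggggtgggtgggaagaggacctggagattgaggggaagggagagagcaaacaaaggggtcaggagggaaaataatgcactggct
TET1: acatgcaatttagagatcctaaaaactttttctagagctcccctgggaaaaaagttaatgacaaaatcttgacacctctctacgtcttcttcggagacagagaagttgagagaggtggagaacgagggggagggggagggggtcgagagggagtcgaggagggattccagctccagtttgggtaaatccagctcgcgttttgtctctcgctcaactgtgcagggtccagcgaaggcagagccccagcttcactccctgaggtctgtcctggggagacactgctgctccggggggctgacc
UHRF1: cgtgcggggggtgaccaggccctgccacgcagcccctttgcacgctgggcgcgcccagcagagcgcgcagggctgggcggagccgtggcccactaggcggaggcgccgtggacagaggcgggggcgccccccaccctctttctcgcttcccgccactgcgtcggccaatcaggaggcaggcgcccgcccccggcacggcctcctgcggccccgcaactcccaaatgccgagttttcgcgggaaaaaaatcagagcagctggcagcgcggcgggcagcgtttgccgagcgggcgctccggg
A match of these letters is a description of the sequence, not a binding site. The counts were made on hg19, so no coordinate of the counted genes is given.

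Genes that work with the members were described from lists by role. The counts below stand beside 12.3% of all genes called in clone 1-10, 26.3% in clone 9-1 and 23.5% in clone 9-D. Of 10 other maintenance partners, all tested, 1 fell in clone 1-10, 2 rose and 2 fell in clone 9-1, and 1 rose and 3 fell in clone 9-D, with medians of 0.01, 0.07 and 0.04. PCLAF, a PCNA-binding protein listed as KIAA0101, fell in all 3, by 0.25 in clone 1-10, 0.55 in clone 9-1 and 0.57 in clone 9-D on the log2 scale. LIG1, the ligase of replication, fell by 0.18 in clone 9-1 and by 0.16 in clone 9-D. DPPA3, which in mouse cells hinders UHRF1, rose by 2.33 in clone 9-1 and 1.89 in clone 9-D, at 2.46 ± 0.328 CPM and 1.79 ± 0.167 CPM, against 0.471 ± 0.0718 CPM in H9 wild type. In clone 1-10 it stood at 2.25 ± 0.395 CPM, against 2.15 ± 0.709 CPM in H1 wild type, and was not called.

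Of 15 TET partners and cofactor enzymes, 1 fell in clone 1-10, and 2 rose and 3 fell in each H9 clone. These counts stood beside 12.3% of all genes called in clone 1-10, 26.3% in clone 9-1 and 23.5% in clone 9-D. IDH2, which makes 2-oxoglutarate in mitochondria, fell in all 3, with log2 fold changes of -0.25 in clone 1-10, -0.44 in clone 9-1 and -0.50 in clone 9-D. Cytosolic IDH1 rose by 0.23 in clone 9-1 and 0.16 in clone 9-D. CXXC5, a CpG-binding protein, also fell, with values of -0.19 in clone 9-1 and -0.23 in clone 9-D. Of 14 base excision repair genes, 2 rose and 1 fell in clone 1-10, 1 rose in clone 9-1 and 2 rose and 1 fell in clone 9-D, while 12.3%, 26.3% and 23.5% of all genes were called. PARP1, a sensor of DNA breaks, was among the rises in all 3, by 0.13, 0.18 and 0.17.

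The 13 tested genes of methionine and folate supply had 1 rise in clone 1-10 and 3 rises and 1 fall in each H9 clone, where MTHFD2 rose and MTHFD1 fell. Of 16 histone-methylation genes tied to DNA methylation, WHSC1, a histone methyltransferase, fell in all 3, with values of -0.24, -0.35 and -0.39. KDM2B, a histone demethylase, rose by 0.42 in clone 9-1 and 0.35 in clone 9-D. Of 10 methyl-CpG readers, 1 rose and 1 fell in clone 1-10 and in clone 9-1, and none was called in clone 9-D. The share called over all genes, for these lists too, was 12.3% in clone 1-10, 26.3% in clone 9-1 and 23.5% in clone 9-D. Of 19 germline genes known to be silenced by methylation, only 4 passed the low-count filter. DPPA2 rose in both H9 clones, by 1.19 in clone 9-1 and 1.47 in clone 9-D on the log2 scale. PIWIL2, of the piRNA pathway, went opposite ways in clone 1-10 and the H9 clones. It fell by 1.94 in clone 1-10 (adjusted p = 0.000203, edgeR) and rose by 1.32 in clone 9-D (adjusted p = 0.0485, edgeR), and its difference of 0.80 in clone 9-1 did not pass. The PIWIL2 effect in the H9 clones minus that in clone 1-10 was 2.996 (adjusted p = 0.000265, edgeR), on 26 to 37 counts over the 3 libraries of each clone, against 98 counts in H1 wild type and 14 in H9 wild type.

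DNMT3B lies in chromosome band 20q11.21, a region gained in some pluripotent cultures, and its neighbours were examined for a shared shift. Of 19 band genes tested in clone 1-10, 1 rose and 2 fell, with a median log2 fold change of -0.06. Of 20 tested in H9, 2 rose and 4 fell in clone 9-1, and 3 rose and 3 fell in clone 9-D, with medians of -0.07 and -0.08. Over all genes, 12.3% were called in clone 1-10, 26.3% in clone 9-1 and 23.5% in clone 9-D. The band counts were near these shares. CCM2L fell in all 3 clones and ID1 rose in all 3. BCL2L1, an anti-apoptotic gene often noted in gains of this band, rose by 0.34 in clone 9-1 and 0.37 in clone 9-D. Gene copy number was not measured.

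**Figure D5:**
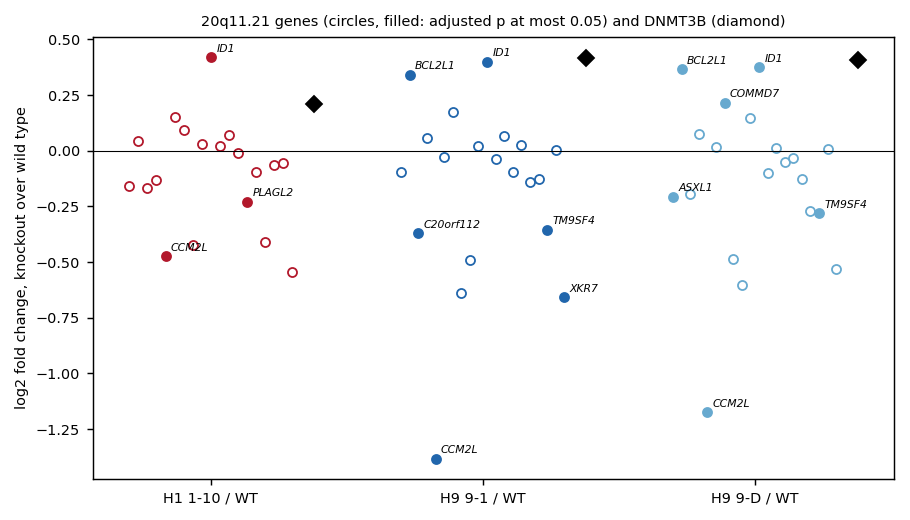
Log2 fold change, clone over its wild type (y axis), of the tested genes of chromosome band 20q11.21 around DNMT3B, in 3 comparisons (x axis). Circles are genes, filled where adjusted p is at most 0.05, and the diamond is DNMT3B. The circles scatter on both sides of 0.

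Genes whose pattern was most like each member were found by Pearson correlation over the 15 replicated libraries after removing each line's mean, among 13837 genes. These are descriptions, and libraries share depth and group. For DNMT3B they were UBAP2L and ACTA1, both at 0.975; for UHRF1, WHRN at 0.928 and ITGA7 at 0.924; and for TET1, FEM1B at 0.902 and UBE2J1 at 0.888. For DNMT1 they were LOC100996437 at 0.862 and TAF1C at 0.858, for DNMT3A, OGDH at 0.859 and ZFYVE26 at 0.858, and for TET2, GOLGA6L9 at 0.792 and RANBP9 at 0.791. For TET3 they were BEND3 at 0.864 and BTBD7 at 0.853, and for TDG, BOD1L1 at 0.893 and NRAS at 0.889. DNMT3L was not compared with all genes, being below 1 CPM in H1. Among pairs of members, the highest value was DNMT3B with DNMT3L, at 0.709, and the lowest DNMT3B with UHRF1, at -0.686. DNMT3L had only 10 counts in clone 1-10 and 6 in H1 wild type. Differences between clones and wild type enter these values, so they are not further evidence.

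In the authors' deposited table, clone 1-10 over wild type gave log2 fold changes of 0.22 for DNMT3B, -0.19 for TET1 and -0.17 for UHRF1, with adjusted p of 8.39e-07, 0.0143 and 0.0853 by DESeq2. For both H9 clones together over wild type, the authors' deposited table gave 0.42 for DNMT3B, 1.41 for DNMT3L, 0.18 for TET1 and -0.23 for UHRF1, with adjusted p of 1.24e-17, 7.71e-09, 0.00348 and 0.00153 by DESeq2.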

How the data were processed

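RNA was measured in 18 libraries. The submitters' processing notes name STAR, featureCounts and DESeq2 and the build hg19. Options, versions and strand handling are not given in the sources used here. The count tables the authors deposited hold whole read counts per gene symbol. Per the file headers, the authors' comparison tables hold log2 fold changes and adjusted p-values. The columns named by line and number alone were taken as wild-type replicates, and the column named as control as the single wild-type library.

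Tests ran on all genes with edgeR 4.0.16 in R 4.3.3 (quasi-likelihood F test, TMM scaling, filterByExpr, Benjamini-Hochberg, adjusted p at most 0.05), in a model per line, and over 15 libraries for differences between lines. Both H9 clones shared 1 wild type and 1 model. Alternatives were RLE scaling, DESeq2 1.42.0, no low-count filter, another prior count, minimum count or scaling for the single libraries, the replicate block and leaving out each library. Single libraries had no test. The fits were also run on simulated data with changes larger than the clone changes of any tested member but DNMT3L. That run does not bear on calls of smaller changes. Levels are TMM-scaled over the 15 replicated libraries, and separately over the 3 single ones. Replicate pairs differed by a chi-square of 1.83 to 5.94 per gene, more than counting error. Same-numbered libraries were not paired by the labels.

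Named genes are all members, ZNF263, core pluripotency genes, genes from the up to 4 per list with the largest change among those called in at least 2 of 3 clone comparisons, and the 2 genes most like each member with at least 1 CPM in both lines. PIWIL2, PODXL and TERT were chosen after their values were seen. Members and lists were chosen with earlier results of these data known. Intervals and ratios of counts cover counting error only.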

Additional observations from a re-analysis of the deposited data

Results flagged for a closer look

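The knockout effect differed between the H9 clones and clone 1-10 for a pair of members. This was the tested difference of effects over 15 libraries (edgeR, Benjamini-Hochberg adjustment). Clone 1-10 was the only replicated H1 knockout clone, so line and clone cannot be told apart. For TET1 the effect in the H9 clones minus that in clone 1-10 was 0.37 (0.3717) on the log2 scale, adjusted p = 0.00099 (edgeR). TET1 was higher in 6 of 6 H9 clone libraries than in any H9 wild-type library. It was lower in 3 of 3 clone 1-10 libraries than in any replicated H1 wild-type library. The 6 H9 clone libraries were set against the same 3 wild-type libraries, which spanned only 123 to 124 CPM. The share of all genes without overlap was not counted. The H1 call itself ended in 3 of 6 fits that left out 1 library, with adjusted p from 0.0661 to 0.118, and the separate single clone 1-10 library had TET1 at 1.02 of its wild type (counting interval 0.949 to 1.10). For DNMT3B the difference was 0.20 (0.1984), adjusted p = 0.0465, with both effects positive. This DNMT3B call ended in 9 of 15 fits that left out 1 library, with adjusted p from 0.0521 to 0.184 (edgeR). Groups of 3 libraries were too small for a test of single outlying libraries.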

How the results depend on the processing

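Every clone call of DNMT3B and DNMT3L held under every alternative run. Of 773 alternative values for single members, 709 kept their direction and side of the threshold, 20 lost the call, 6 gained it and 38 reversed, all of the reversed ones for members not called and with 1 library left out. The cause was not tested. Leaving out 1 library, log2 fold changes ran as follows in clone 1-10: DNMT1 -0.0144 to 0.017, TET2 -0.143 to 0.0503, TDG -0.01004 to 0.0937. In clone 9-1 they were DNMT1 -0.0205 to 0.0273, DNMT3A -0.0195 to 0.034, TET2 -0.166 to 0.0968, TET3 -0.00892 to 0.174, TDG -0.0245 to 0.0416, and in clone 9-D DNMT1 -0.0519 to 0.0092, TDG -0.0855 to 0.0563. For clone 9-D against 9-1 they were DNMT3B -0.0241 to 0.0195, TET1 -0.0824 to 0.00929, TET2 -0.22 to 0.033, TDG -0.103 to 0.0389, for H9 against H1 wild type TET2 -0.0545 to 0.139, and for the difference of effects DNMT1 -0.0381 to 0.0106, TET2 -0.138 to 0.088, TET3 -0.172 to 0.00727, TDG -0.0968 to 0.00332. With 1 library left out, members called ranged from 1 to 2 in clone 1-10 and from 2 to 4 in clone 9-1. They ranged from 3 to 4 in clone 9-D and from 1 to 2 for the difference of effects. Over all settings, clone 1-10 had 1 to 3 members called. In the fits with 1 library left out, genes called ranged from 949 to 2100 in clone 1-10 (1827 with all libraries). For clone 9-D against 9-1 they ranged from 25 to 53. DESeq2 called 1210 genes in clone 1-10. It ended the UHRF1 call in clone 9-1 and gave TET1 in clone 9-D an adjusted p of 0.0454. Without the low-count filter, the adjusted p by edgeR of UHRF1 was 0.0492 in clone 1-10 and 0.0828 in clone 9-1. In the single libraries, a prior count of 5 left 1215 genes past 1.5-fold in clone 1-5 and 1235 in clone 1-10. With no minimum count they were 4666 and 4703, and 1 member, DNMT3L, passed in each.

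The replicate block called 2926 genes in clone 1-10, and gave adjusted p of 0.00655 for UHRF1 there and 0.0355 for TET1 in clone 9-D by edgeR; it changed no other member call. The labels do not pair the samples. Deviations of same-numbered libraries correlated at 0.00872 to 0.12 in H1, with 1 of 3 over 0.1, and at -0.0718 to 0.0883 in H9, so the numbers were not taken as pairs. DNMT3L and TET2, with few counts, limit precision most.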
